A study of Mus musculus with 19 samples.

Results

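The 9 genes described here encode proteins that hold latent TGF beta in a tissue or release it from its latent complex: Ltbp1, Ltbp2, Ltbp3 and Ltbp4 (latent TGF beta binding proteins), Itgav, Itgb5 and Itgb8 (integrin subunits alpha v, beta 5 and beta 8), and Nrros and Lrrc32 (membrane anchors of latent TGF beta). They were chosen by name, from known function, and all 9 of them were found among the 27998 genes of every count matrix. The question was which cell types at a site of heterotopic ossification, bone formed in soft tissue after injury, could store and activate the TGF beta 1 made by macrophages. Levels are UMIs (unique molecular identifiers, 1 per captured transcript molecule) of a gene per 1000000 UMIs of a cell type in a library (CPM).

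The study profiled single cells from the mouse hind limb by droplet 3′ sequencing, after a burn on the back combined with Achilles tenotomy (cutting of the tendon), an injury that leads to ectopic bone. There were 4 libraries at day 0 (3561 cells used), 3 at day 3 (5795 cells), 4 at day 7 (13414 cells), 4 at day 21 (5345 cells) and 4 from mice given p7N3 (11426 cells), 39541 cells in all. The study's methods describe day 0 as uninjured, although the labels of those libraries list the burn as for all others. p7N3, a peptide that activates CD47, was injected intraperitoneally at 10 mg/kg each day from 3 days before to 3 days after injury; the harvest day of p7N3 replicate 4 is not in its label. The study describes PBS-treated mice as the comparison for the peptide, but the labels name no vehicle for the day 7 libraries that served as it here. The mice were C57 and LysmCre/Tgfb1fx/fx, the second a line in which Cre expressed in myeloid cells deletes Tgfb1, but the labels tie no genotype to a library. Neither ages nor whether replicate libraries came from separate animals could be read from the labels, so p-values measure the spread between libraries.

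Depth differed between groups. The kept cells of day 0 libraries held between 3019467 and 5383855 UMIs, those of the day 3, day 7 and p7N3 libraries between 25243407 and 39870492, and those of day 21 libraries between 11064153 and 29233343, so day 0 levels rest on the fewest molecules. Any pair of libraries shared at most 22 cell barcodes, and at most 1.26% of those of the smaller library. Cells were clustered without the 9 genes, and 17 cell types were named from marker lists as "-like"; 4 clusters with 1706 cells stayed unnamed. Stromal-like cells (Pdgfra, Col1a1, Dcn and other matrix genes), monocyte/macrophage-like cells (Cd68, Adgre1, Csf1r and others, called macrophage-like below) and endothelial-like cells (Pecam1, Cdh5 and others) were present in every group and carry the comparisons over time. Clusters named osteoclast-like were led by Mmp9, Acp5 and Mmp12 and also held macrophage markers. The larger of them, cluster 7 (1849 cells), was led by Mmp12. With finer clustering (Leiden resolution 2), a cluster led by Mmp12 and Gpnmb, with 852 cells of day 7, scored best for the macrophage list. It stayed unnamed, and the cluster then named osteoclast-like held 149 cells of day 7. The name osteoclast-like is therefore loose, and these levels may be largely those of macrophages. The single cluster named Schwann cell-like kept only part of its identity after injury: its 6 summed markers ran from 56535 to 61695 CPM in the day 0 libraries, from 844 to 2150 CPM in 3 day 7 libraries and from 11942 to 40496 CPM at day 21.

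TGF beta 1 leaves the cell bound to its own propeptide, and this latent complex cannot reach the receptor. In matrix, LTBP1, LTBP3 and, more weakly, LTBP4 bind the complex covalently and tie it to fibrillin and fibronectin fibres, whereas LTBP2 sits on the same fibres without binding latent TGF beta. Integrins made of alpha v with a beta subunit (beta 5 or beta 8 among others) grip the propeptide and free or expose the growth factor, and NRROS (also LRRC33) on myeloid cells and GARP, the product of Lrrc32, on regulatory T cells, platelets and endothelium hold the complex at the cell surface.

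All 9 genes lie on the reference chromosomes of build GRCm38 (GENCODE vM21 annotation) and are annotated as protein coding. Ltbp1 spans chr17:75005568-75392512 on the plus strand, Ltbp2 chr12:84783212-84876532 on the minus strand, Ltbp3 chr19:5740904-5758532 on the plus strand and Ltbp4 chr7:27305136-27337692 on the minus strand. Itgav spans chr2:83724397-83806916 (plus), Itgb5 chr16:33829665-33949338 (plus), Itgb8 chr12:119158022-119238802 (minus), Nrros chr16:32142785-32165594 (minus) and Lrrc32 chr7:98489283-98502181 (plus). Over all cells the genes were counted 27730 (Ltbp1), 12262 (Ltbp2), 30797 (Ltbp3), 40663 (Ltbp4), 28689 (Itgav), 47387 (Itgb5), 2359 (Itgb8), 26605 (Nrros) and 14539 (Lrrc32) times. A second row with the name Ltbp4 held 0 UMIs and was not used.

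RefSeq promoter windows (GRCm38.p6, 250 bases before to 50 after a transcription start) were held for 8 of the 9 genes, 11 windows in all, and none was found for Lrrc32. Windows of Ltbp2 (chr12:84876442-84876741, minus strand), Ltbp3 (chr19:5740650-5740949, plus strand) and Ltbp4 (chr7:27337563-27337862, minus strand) are printed because the 3 genes took different courses in stromal-like cells after injury, and that of Nrros (chr16:32165545-32165844, minus strand) because it was the member with its highest day 7 level in macrophage-like cells. Capitals mark, on either strand, GAGGAA (the core read by PU.1 and other ETS factors), CAGACA (the SMAD binding element) and TGANTCA (the AP-1 site). By letters alone, 28.3% of 32851 mouse promoter windows held GAGGAA, 21.0% CAGACA and 7.81% TGANTCA.
Ltbp2: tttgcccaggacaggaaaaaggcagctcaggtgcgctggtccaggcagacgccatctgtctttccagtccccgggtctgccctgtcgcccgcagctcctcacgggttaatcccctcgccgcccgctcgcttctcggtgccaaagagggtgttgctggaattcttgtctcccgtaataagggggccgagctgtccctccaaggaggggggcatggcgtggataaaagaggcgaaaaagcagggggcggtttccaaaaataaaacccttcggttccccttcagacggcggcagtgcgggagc
Ltbp3: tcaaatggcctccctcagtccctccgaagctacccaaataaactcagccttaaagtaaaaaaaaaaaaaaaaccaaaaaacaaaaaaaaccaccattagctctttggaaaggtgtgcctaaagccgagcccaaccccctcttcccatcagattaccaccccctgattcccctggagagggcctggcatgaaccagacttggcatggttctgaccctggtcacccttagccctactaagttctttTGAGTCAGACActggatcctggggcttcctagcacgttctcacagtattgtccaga
Ltbp4: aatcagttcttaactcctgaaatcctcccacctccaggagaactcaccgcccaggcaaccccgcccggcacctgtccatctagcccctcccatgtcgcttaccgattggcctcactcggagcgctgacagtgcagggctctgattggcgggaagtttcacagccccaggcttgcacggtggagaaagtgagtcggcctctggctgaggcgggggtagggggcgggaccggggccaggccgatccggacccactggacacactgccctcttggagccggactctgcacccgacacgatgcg
Nrros: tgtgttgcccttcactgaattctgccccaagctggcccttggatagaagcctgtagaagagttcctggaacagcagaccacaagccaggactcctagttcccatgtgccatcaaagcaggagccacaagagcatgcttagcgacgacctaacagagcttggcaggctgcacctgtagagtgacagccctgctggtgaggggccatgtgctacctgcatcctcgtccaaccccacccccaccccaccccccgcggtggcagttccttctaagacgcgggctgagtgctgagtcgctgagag
The Ltbp3 window held 1 CAGACA that overlapped 1 TGANTCA, and the other 3 printed windows held none of these motifs. The Itgav window (chr2:83724147-83724446) held 2 copies of GAGGAA, and that of Itgb8 (chr12:119238227-119238526) held 1 CAGACA. A match of letters is a description of the window and not a bound site.

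At day 7 the genes fell to different cell types (heat map of mean levels by cell type). Ltbp1, Ltbp2 and Ltbp3 were highest in tenocyte-like and then stromal-like cells, Ltbp4 in lymphatic endothelial-like and endothelial-like cells, Itgb8 in Schwann cell-like cells, Nrros in macrophage-like and dendritic cell-like cells, Lrrc32 in lymphatic endothelial-like, endothelial-like and pericyte/smooth muscle-like cells, and Itgav and Itgb5 were spread over many types. Among the 12 types with enough cells, the type with the highest CPM also had the highest share of cells with a UMI after every cell was thinned to 1500 UMIs, for 9 of 9 genes. No named cell type had the highest level of all 9 genes. Unnamed clusters were not ranked. At day 7 their cells together held means of 2752 CPM of the tenocyte markers and 1097 CPM of the chondrocyte markers. Tenocyte-like cells held 2455 and 560 CPM of these. The ranking thus leaves out cells rich in tenocyte and chondrocyte markers. The largest unnamed cluster, cluster 17 (1084 cells, led by Col2a1 and Cilp2), held Ltbp3 at 197 ± 66.7 CPM and Ltbp1 at 110 ± 47.2 CPM (SD, n = 10 libraries of any group). Tenocyte-like cluster 2 held 171 ± 20.8 and 131 ± 36.0 CPM of them on the same basis (n = 12).

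**Figure D1:**
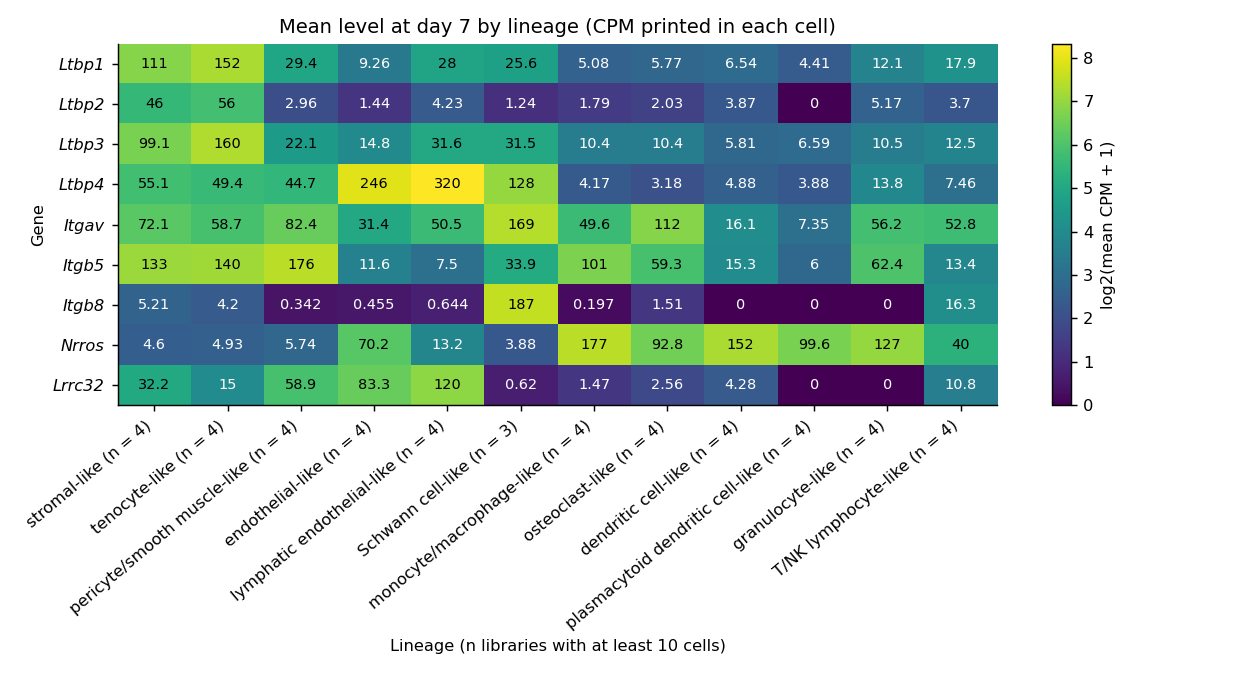
Mean CPM of the 9 genes (rows) in the 12 cell types (columns) that had at least 10 cells in 3 or more day 7 libraries, with the number of libraries under each column and colour on a log2(CPM + 1) scale. Nrros is bright in the myeloid columns, where Ltbp1 to Ltbp4 are dark, and the reverse holds for the stromal-like and tenocyte-like columns.

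Ltbp1 at day 7 stood at 122, 164, 152 and 170.0 CPM in tenocyte-like cells and at 115, 104, 128 and 96.3 CPM in stromal-like cells. The mean ± SD of tenocyte-like cells, 152 ± 21.2 (n = 4), lay above that of stromal-like cells, 110.7 ± 13.9 (n = 4), without overlap, and pericyte/smooth muscle-like cells (pericyte-like below) followed at 29.4 CPM. Ltbp2 means were 56.0 ± 16.4 CPM (SD, n = 4) in tenocyte-like and 46.1 ± 7.23 CPM (n = 4) in stromal-like cells, which overlapped, and no other cell type exceeded 5.17 CPM. Ltbp2, a protein of elastic fibres, thus stood out in these 2 types among the 12 measured at day 7. Ltbp3 stood at 163, 156, 144 and 176 CPM in tenocyte-like cells and at 118, 88.1, 110.3 and 79.7 CPM in stromal-like cells, again without overlap. Lymphatic endothelial-like cells followed at 31.6 CPM.

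Ltbp4, which also directs elastic fibre assembly, had another order. It reached 314, 211, 284 and 469.7 CPM in lymphatic endothelial-like cells and 260.4, 199, 263 and 264 CPM in endothelial-like cells, 2 means that overlapped within their SDs. Schwann cell-like cells followed at 128 ± 23.9 CPM (SD, n = 3), and stromal-like, tenocyte-like and pericyte-like cells at 55.1, 49.4 and 44.7 CPM, which overlapped. Macrophage-like cells held 4.17 CPM.

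The integrin subunits were broader. Itgav was highest in Schwann cell-like cells (147, 130.2 and 229 CPM) and osteoclast-like cells (116, 101, 134 and 98.4 CPM), which overlapped, followed by pericyte-like (82.4 ± 6.40), stromal-like (72.1 ± 2.18) and macrophage-like cells (49.6 ± 2.29, all SD, n = 4). Itgb5 was highest in pericyte-like cells (176 ± 13.7 CPM, SD, n = 4), then in tenocyte-like (140.5) and stromal-like cells (133), which overlapped, and macrophage-like cells (101 ± 9.88). In endothelial-like cells its mean was 11.6 CPM. Itgb8, whose product binds only alpha v, was concentrated in Schwann cell-like cells with 169, 143 and 249 CPM in 3 libraries. T/NK lymphocyte-like cells came next at 17.5, 8.48, 22.6 and 16.5 CPM, values that rest on 8, 3, 4 and 4 UMIs, and stromal-like cells held 5.21 ± 0.930 CPM (SD, n = 4). Dendritic cell-like cells held 0 UMIs of Itgb8, which at this depth allows up to 0.799 CPM (3 counts over the group; counting error only).

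After thinning, an Itgav and an Itgb5 UMI were seen together in 68 of 3842 stromal-like cells (1.77%), 43 of 4018 macrophage-like cells (1.07%) and 14 of 561 pericyte-like cells (2.50%) of day 7. Itgav and Itgb8 UMIs were seen together in 4 of 80 Schwann cell-like cells (5.00%) and in 2 of the stromal-like cells. At 1500 UMIs per cell most cells that hold a transcript show none, so these shares only order the types.

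Nrros at day 7 stood at 172, 162, 196 and 177 CPM in macrophage-like cells. Dendritic cell-like cells (152 ± 15.2 CPM, SD, n = 4) and granulocyte-like cells (127 ± 51.4) overlapped with them, plasmacytoid dendritic cell-like cells held 99.6 CPM and osteoclast-like cells 92.8 ± 8.997 CPM. Endothelial-like cells held 61.7, 70.4, 71.3 and 77.4 CPM, below every myeloid type and above T/NK lymphocyte-like cells (40.0 CPM), and stromal-like cells 4.60 CPM. Lrrc32 stood at 120 ± 24.98 CPM in lymphatic endothelial-like, 83.3 ± 14.4 in endothelial-like, 58.9 ± 9.88 in pericyte-like and 32.2 ± 7.92 in stromal-like cells (SD, n = 4 each). The T/NK lymphocyte-like cells, which would include regulatory T cells, held 10.8 CPM of Lrrc32 and macrophage-like cells 1.47 CPM.

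Since cell types differ in number and in RNA content, the highest level was not always the largest pool. Stromal-like cells held 56.9% of the Ltbp1 UMIs of a day 7 library on average, 62.0% of Ltbp2, 52.1% of Ltbp3 and 40.4% of Ltbp4, and tenocyte-like cells a further 36.5%, 34.4%, 39.5% and 19.2%. Of Itgb8, the stromal-like cells held 44.7% and the Schwann cell-like cells 31.6%, although the level in the second was far higher. Macrophage-like cells held 61.5% of Nrros, 14.7% of Itgb5 and 12.6% of Itgav, and endothelial-like cells 23.9% of Ltbp4, 17.2% of Lrrc32 and 7.76% of Nrros. Stromal-like cells held larger pools than these of Itgb5, Itgav and Lrrc32, at means of 133, 72.1 and 32.2 CPM. Their day 7 sums held 13227523 to 16694593 UMIs a library. Macrophage-like sums held 4600482 to 6829704 UMIs and endothelial-like sums 1201285 to 2803008. In such sums, more cells of a type and more RNA per cell cannot be told apart.

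Differences between cell types at day 7 were tested with edgeR's quasi-likelihood test with library as a block, and all adjusted p are Benjamini-Hochberg values over 11664 genes. Macrophage-like cells differed from stromal-like cells in 8 of 9 genes, 1 higher and 7 lower, where 74.9% of all genes tested passed. All-gene calls were 4074 higher and 4666 lower with edgeR and 3132 higher and 5867 lower with DESeq2, so the balance of directions differed between the tools. Nrros was 46.7-fold higher in macrophage-like cells (log2 fold change 5.55, SE 0.14, adjusted p 3.8e-33). Ltbp1 (log2 fold change -4.18), Ltbp2 (-4.39), Ltbp3 (-2.97), Ltbp4 (-3.40), Itgb8 (-4.11) and Lrrc32 (-4.14) were lower. Itgb5 gave a log2 fold change of -0.11 (SE 0.12, adjusted p 0.413), and Itgav one of -0.25 (SE 0.11, adjusted p 0.0345) that went to 0.04 (adjusted p 0.748) when osteoclast-like clusters were counted as macrophages, an alternative chosen after the data were seen. Besides that 1 reversal, 8 alternatives kept the call of Itgav and 7 lost it. The low levels in macrophage-like cells stood beside stromal markers there: the 6 stromal markers summed to 1234 to 1749 CPM, 2.81% of the stromal level, and Ltbp1 to 4.59% and Ltbp2 to 3.88% of theirs. Ltbp3, at 10.4 CPM against 99.1 CPM in stromal-like cells, and Ltbp4, at 4.17 against 55.1 CPM, kept larger shares. The part of free stromal RNA in these values was not tested.

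Endothelial-like cells differed from stromal-like cells in 9 of 9 genes, 3 higher and 6 lower, beside 57.5% of all genes. Ltbp4 was higher by 1.93 on the log2 scale (SE 0.18, adjusted p 3.8e-13), Nrros by 3.67 (SE 0.15, adjusted p 1.3e-25) and Lrrc32 by 1.11 (SE 0.15, adjusted p 2.5e-08). Both subunits of the alpha v beta 5 pair were lower, Itgb5 with a log2 fold change of -3.80 (SE 0.17, adjusted p 1.3e-23) and Itgav with one of -1.45. The remaining lower genes were Ltbp1 (-3.87), Ltbp2 (-5.30), Ltbp3 (-3.03) and Itgb8 (-3.83).

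Pericyte-like cells differed from stromal-like cells in 6 of 9 genes, 1 higher and 5 lower, beside 46.1% of all genes. Lrrc32 was higher (log2 fold change 0.64, SE 0.16, adjusted p 0.000852), and Ltbp1 (-2.16), Ltbp2 (-4.18), Ltbp3 (-2.39) and Itgb8 (-3.96) were lower. Ltbp4 passed narrowly (-0.50, adjusted p 0.0477) and did not with DESeq2 (adjusted p 0.325). In all, 7 alternatives kept its call and 8 lost it. Itgav and Itgb5 had higher CPM in every pericyte-like sum than in any stromal-like one, but with edgeR's scaling the log2 fold changes were -0.05 and 0.16 and neither passed. Dendritic cell-like cells differed from macrophage-like cells in 4 of 9 genes, 1 higher and 3 lower, beside 36.5% of all genes. The integrin subunits were lower in the dendritic cell-like cells: Itgav had a log2 fold change of -1.70 (SE 0.19, adjusted p 2.8e-10) and Itgb5 of -2.81 (SE 0.20, adjusted p 4.5e-16), whereas that of Nrros was -0.28 (adjusted p 0.0657). Ltbp3 (-1.14, adjusted p 0.0275) and Lrrc32 (1.46, adjusted p 0.0271) also passed, at means between 1.47 and 10.4 CPM, but neither did without day 7 replicate 1, which left a count of 2 genes.

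In stromal-like cells, the chief producers of matrix, the 4 binding proteins took separate courses after injury (plot of the 4 genes by library). Ltbp4 fell by day 3 and stood nearer to its day 0 level at day 21, Ltbp2 rose by day 3 and stood lower again at day 21, Ltbp1 was lowest at day 3, and Ltbp3 rose at day 21. All comparisons below are with the day 0 libraries, which the 3 later days share. The day 3 sums rest on 254, 376 and 193 stromal-like cells with 9418465, 12722531 and 7609245 UMIs. Those of day 0 rest on 147 to 427 cells with 883945 to 2181656 UMIs, so the day 3 cells were far deeper. The part of depth in the day 3 differences was not tested.

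**Figure D2:**
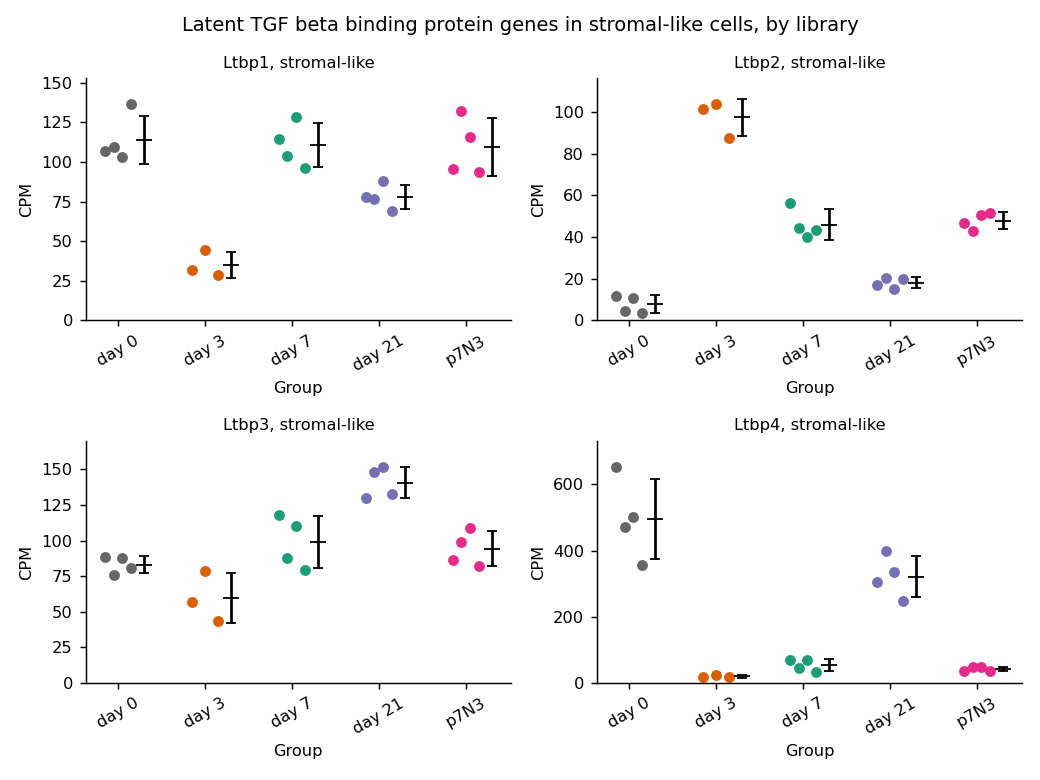
CPM of Ltbp1, Ltbp2, Ltbp3 and Ltbp4 in stromal-like cells; each point is 1 library, and the bar is the mean ± SD of the group. Ltbp4 falls from 358 to 653 CPM at day 0 to 17.5 to 23.6 CPM at day 3, where Ltbp2 is at its highest, 87.5 to 104 CPM.

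Ltbp4 stood at 653, 472, 500.3 and 358 CPM in the day 0 libraries, at 18.5, 23.6 and 17.5 CPM at day 3, at 70.8, 45.8, 70.3 and 33.7 CPM at day 7 and at 304, 399.5, 334 and 249 CPM at day 21. Neither the day 3 nor the day 7 libraries overlapped with day 0, while those of day 21 did. The level was 22.8-fold lower at day 3 (log2 fold change -4.51, SE 0.20, adjusted p 3.3e-09) and 8.74-fold lower at day 7 (-3.13, SE 0.25, adjusted p 8.5e-07). At day 21 the log2 fold change was -0.59 (SE 0.17, adjusted p 0.0197), a call that was lost without day 0 replicate 1, day 0 replicate 3 or day 21 replicate 1 (adjusted p 0.0723, 0.0504 and 0.0519).

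Ltbp2 stood at 11.9, 4.53, 10.7 and 3.55 CPM at day 0, at 102, 104 and 87.5 CPM at day 3, at 56.6, 44.4, 40.1 and 43.2 CPM at day 7 and at 16.9, 20.6, 14.9 and 19.6 CPM at day 21. Every later library lay above every day 0 library. The log2 fold changes were 3.63 (SE 0.22, adjusted p 3.7e-08), 2.47 (SE 0.25, adjusted p 5.9e-06) and 1.13 (SE 0.27, adjusted p 0.00722).

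Ltbp1 stood at 107, 109.7, 103 and 136 CPM at day 0 and fell to 31.5, 44.6 and 28.9 CPM at day 3, apart from every other group (log2 fold change -1.57, SE 0.16, adjusted p 3.1e-06). At day 7 the log2 fold change lay between -0.26 and 0.26 (2 SE on either side; adjusted p 0.996), and at day 21, with 78.2, 76.7, 87.7 and 68.8 CPM, it was lower (-0.51, SE 0.12, adjusted p 0.00551). Ltbp3 stood at 88.5, 75.8, 87.5 and 81.0 CPM at day 0, at 57.1, 78.8 and 43.6 CPM at day 3 and at 118, 88.1, 110.3 and 79.7 CPM at day 7, which did not pass (adjusted p 0.084 and 0.115). At day 21 all 4 libraries, at 129.8, 148, 152 and 133 CPM, lay above those of day 0 (0.78, SE 0.10, adjusted p 0.000111).

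Of the other members in stromal-like cells, Itgav and Itgb5 moved little. Itgav ranged from 65.6 to 83.4 CPM and Itgb5 from 99.6 to 154 CPM over the 15 libraries without p7N3, and neither passed at any day. Lrrc32 stood at 14.7, 21.5, 10.7 and 18.5 CPM at day 0, at 58.7, 36.1 and 67.9 at day 3, at 39.4, 37.7, 22.2 and 29.5 at day 7 and at 62.1, 36.7, 45.9 and 61.3 at day 21, each later group above every day 0 library. Its log2 fold changes were 1.92 (SE 0.25, adjusted p 2.9e-05), 1.08 (SE 0.23, adjusted p 0.00173) and 1.79 (SE 0.22, adjusted p 9.9e-05). Itgb8 was near its limit of detection, with 12 UMIs in the 4 day 0 libraries together (1.65 CPM) and 6.47, 5.21 and 5.49 CPM at the later days. It passed each time (1.9, 1.5 and 1.59, adjusted p 0.00251, 0.0148 and 0.0201), but not at day 7 or day 21 without day 0 replicate 3, the library at 0.537 CPM (adjusted p 0.0582 and 0.075).

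Nrros in stromal-like cells was at 1.83, 0, 1.61 and 0 CPM at day 0 and at 15.9, 22.4 and 19.2 CPM at day 3 (log2 fold change 4.22, SE 0.41, adjusted p 2.0e-06), then at 2.93 to 5.81 CPM at day 7 (2.10, SE 0.56, adjusted p 0.00704). The sum of the 8 macrophage markers in the same cells moved with it, and all 8 were above 0. It went from 61.8 to 140.3 CPM at day 0 to 1219 to 1359 CPM at day 3 and 315 to 549 CPM at day 7. Lyz2 made up most of the day 3 sum, with means of 53.3, 947 and 313 CPM at day 0, day 3 and day 7. Ly6c2 went the other way, with means of 23.7, 18.1 and 3.51 CPM. Relative to macrophage-like cells of the same day, Nrros was at 0.465% and the markers at 0.515% at day 0, at 8.08% and 6.39% at day 3 and at 2.61% and 1.43% at day 7. The part of macrophage RNA in stromal Nrros was not tested.

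Over the 9 genes, 6 passed in stromal-like cells at day 3 (4 higher, 2 lower), 5 at day 7 (4 higher, 1 lower) and 6 of 8 tested at day 21 (4 higher, 2 lower), beside 66.3%, 53.6% and 32.7% of all genes tested. The median log2 fold change of the members was 0.12, 0.28 and 0.55, against 0.01, 0.01 and -0.01 for all genes. These counts and medians include Nrros at day 3 and day 7 and Itgb8 at all 3 days. Both rest on few UMIs at day 0. They passed the filter on low counts only through the later libraries, where they were higher. Without day 7 replicate 1 or 3 the day 7 count was 3, as Nrros and Itgb8 were then not tested.

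The clusters that make up stromal-like cells also changed. Cluster 12 (Myoc, Gsn, Inmt) held 80.7% of the stromal-like cells of day 0, cluster 18 (Cfd, Prg4, Car3) 90.9% of those of day 3, and day 7 was divided among cluster 0 (Sfrp4, Clec3b, Pi16; 39.1%), cluster 6 (Gzme, Sfrp1, Chl1; 22.1%), cluster 8 (Crabp1, Col7a1, Ibsp; 19.6%) and cluster 14 (Cdc20, Ube2c, Birc5; 15.5%). Within cluster 0, present in every group, mean Ltbp4 went from 240.1 CPM at day 0 to 92.0 at day 3, 132 at day 7 and 307 at day 21, a smaller excursion than in the whole cell type. At day 7 Ltbp4 was lower in the clusters that were scarce at day 0, at 17.0 CPM in cluster 8, 24.1 in cluster 14 and 40.9 in cluster 6. Ltbp1 differed among them in another way, with 207 CPM in cluster 6, 113 in cluster 0 and 44.9 in cluster 8. Ltbp2 was at 98.8 CPM in cluster 18 at day 3 and at 72.6 CPM in cluster 6 at day 7, and Ltbp3 in cluster 0 went from 54.9 CPM at day 0 through 84.8 and 127 to 159 CPM at day 21. These values are descriptions, since clusters were formed from the same cells, and how much of each change was a shift between clusters was not tested.

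In macrophage-like cells both integrin subunits rose after injury, while Nrros ran at over 100 CPM in every library (plot of Itgav and Itgb5 by library). Itgav stood at 19.1, 10.8, 6.68 and 21.9 CPM at day 0, at 55.0, 59.0 and 64.3 at day 3, at 49.3, 47.5, 52.8 and 48.6 at day 7 and at 44.0, 37.8, 48.4 and 50.9 at day 21. Every later library lay above every day 0 library, and the log2 fold changes were 1.99 (SE 0.24, adjusted p 2.5e-05), 1.86 (SE 0.24, adjusted p 9.7e-06) and 1.64 (SE 0.28, adjusted p 0.000275). Itgb5 stood at 50.8, 32.3, 66.8 and 24.98 CPM at day 0, at 104, 92.7 and 97.1 at day 3, at 90.6, 113, 105 and 96.5 at day 7 and at 137, 110.4, 92.2 and 85.7 at day 21, also without overlap. Its log2 fold changes were 1.19 (SE 0.19, adjusted p 0.000257), 1.37 (SE 0.20, adjusted p 4.3e-05) and 1.34 (SE 0.23, adjusted p 0.000292).

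**Figure D3:**
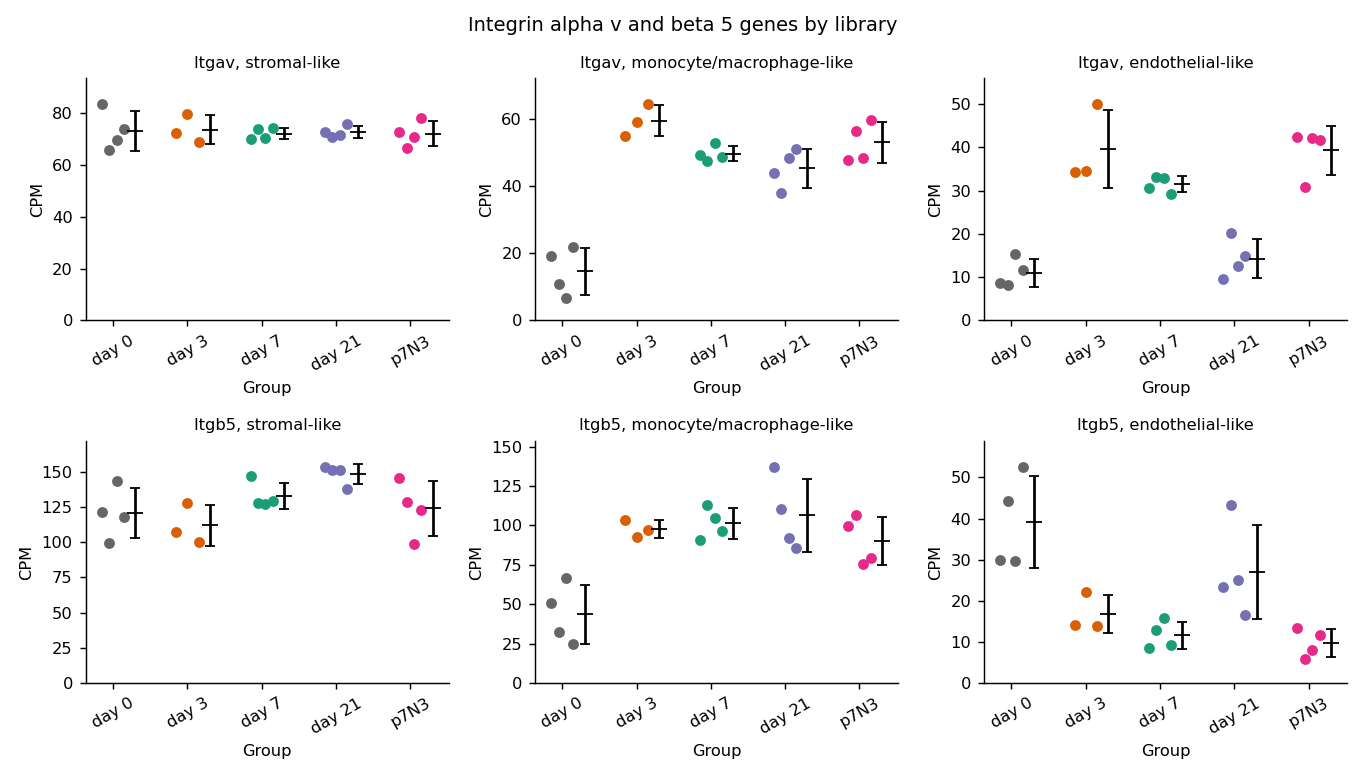
CPM of Itgav (top) and Itgb5 (bottom) in stromal-like, macrophage-like and endothelial-like cells; each point is 1 library and the bar is the mean ± SD of the group. In macrophage-like cells both genes lie higher at every later day than at day 0, in stromal-like cells Itgav stays between 65.6 and 83.4 CPM, and in endothelial-like cells Itgav goes up at day 3 and day 7 where Itgb5 goes down.

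Nrros in macrophage-like cells stood at 232, 172, 170.2 and 166 CPM at day 0 and at 232, 252 and 227 CPM at day 3. These groups overlapped, and the log2 fold change of 0.39 (SE 0.12, adjusted p 0.0177) was lost when osteoclast-like clusters were added (adjusted p 0.0886). At day 7 and day 21 (136, 154, 129 and 163 CPM) the log2 fold changes were 0.10 and -0.27 and did not pass (adjusted p 0.605 and 0.172). Tgfb1 itself, the factor to be stored, ran at 289, 334, 227 and 306 CPM at day 0, 360.1, 348 and 358 at day 3 and 267, 264, 232 and 276 at day 7 in the same cells, with log2 fold changes of 0.37 at day 3 (adjusted p 0.0183) and 0.05 at day 7 (adjusted p 0.815).

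The LTBP genes were scarce in macrophage-like cells at all times. Ltbp2 was at 0 UMIs in the 4 day 0 libraries, which allows up to 1.96 CPM (3 counts over the group), and at 5.63 and 1.79 CPM at day 3 and day 7. Ltbp4 stood at 22.2, 21.5, 6.68 and 6.25 CPM at day 0 and at 6.003, 3.62, 5.22 and 1.82 CPM at day 7 (log2 fold change -1.68, SE 0.49, adjusted p 0.0126), a call lost without day 0 replicate 1 or replicate 2 (adjusted p 0.242 and 0.057). Ltbp3 gave 1.16 (SE 0.43, adjusted p 0.0423) on 3, 2, 2 and 1 UMIs at day 0, and did not pass with DESeq2 (adjusted p 0.0877) or without any 1 of the day 0 libraries (0.0529 to 0.131). Over the list, 3 of 3 members tested passed at day 3 (all higher), 4 of 6 at day 7 (3 higher, 1 lower) and 2 of 4 at day 21 (both higher), beside 52.4%, 34% and 24.3% of all genes. Leaving out any 1 library gave a day 7 count of 2 or 3, and 2 without day 0 replicate 1, day 0 replicate 2 or any day 7 library. At day 3 only 3 members passed the filter on low counts, and without it 6 of 9 were called. Leaving out a day 0 library raised the day 3 count to 5 or 6, and without day 0 replicate 1, the library at 232 CPM, the log2 fold change of Nrros was 0.70.

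Macrophage-like cells changed their clusters too. Cluster 15, led by Cd209f, held 71.4% of them at day 0 and 8.26% at day 7. Within this cluster Itgav went from 9.73 CPM at day 0 to 24.5, 20.2 and 24.9 CPM at day 3, day 7 and day 21, below the level of the whole cell type at those days. Itgb5 within it went from 35.6 CPM at day 0 to 51.4 at day 7 and 66.8 at day 21, and Nrros was 178 CPM at day 0. The day 3 level of Itgb5 in this cluster is not given here. Over all 19 libraries its mean there was 48.6 ± 20.7 CPM (SD). The whole cell type had means of 97.8, 101 and 106 CPM at day 3, day 7 and day 21.

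The change from day 0 to day 7 was compared directly between stromal-like and macrophage-like cells in an interaction test, in which 4 of 9 members passed (1 with a higher, 3 with a lower change in stromal-like cells) and 19.4% of all genes. The stromal change was below that of macrophage-like cells by 1.93 for Itgav (log2 difference -1.93, SE 0.26, adjusted p 6.0e-06), for Itgb5 (-1.25, SE 0.22, adjusted p 0.000147) and for Ltbp4 (-1.55, SE 0.31, adjusted p 0.000614). The macrophage-like side of Ltbp4 was low too, with means of 14.2 CPM at day 0 and 4.17 CPM at day 7. The interaction of Ltbp4 kept its call under all 18 alternatives that tested it. For Nrros the stromal change was above by 1.94 (SE 0.50, adjusted p 0.00644), on a stromal level of under 6 CPM.

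Endothelial-like cells lost Ltbp4 and gained Nrros. Their day 3 sums rest on only 27, 28 and 27 cells, with 843738, 722964 and 861009 UMIs. The day 0 sums rest on 202 to 276 cells with 908560 to 1170980 UMIs, so the day 3 cells were far deeper. Whether these few cells stand for the endothelial-like cells of day 3 was not tested. Ltbp4 stood at 757, 736, 654 and 683 CPM at day 0, at 119, 232 and 119 CPM at day 3, at 260.4, 199, 263 and 264 CPM at day 7 and at 685, 608, 797 and 699 CPM at day 21. The libraries of day 3 and day 7 lay apart from those of day 0 and day 21, which overlapped with each other. The log2 fold changes were -2.07 (SE 0.20, adjusted p 9.4e-07), -1.52 (SE 0.10, adjusted p 2.6e-09) and 0.03 (adjusted p 0.882).

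Nrros in endothelial-like cells stood at 19.6, 19.6, 13.2 and 18.7 CPM at day 0, at 53.3, 44.3 and 48.8 at day 3, at 61.7, 70.4, 71.3 and 77.4 at day 7 and at 29.9, 26.2, 31.4 and 40.9 at day 21. No later library reached down to day 0, and the log2 fold changes were 1.56 (SE 0.20, adjusted p 1.6e-05), 1.95 (SE 0.16, adjusted p 2.2e-08) and 0.91 (SE 0.20, adjusted p 0.00471). The summed macrophage markers in the same cells also moved (bar chart of Nrros beside the markers). From day 0 to day 3 their sum went from 192.6 to 430.1 CPM to 964 to 1266 CPM, or from 1.25% to 5.76% of the macrophage level, a larger relative step than that of Nrros, which went from 9.61% to 20.6%. The part of macrophage RNA in the day 3 value was not tested. At day 7 the 8 markers summed to 184 to 685 CPM, 1.58% of the macrophage level, while Nrros was at 39.8% of it. Of these markers Adgre1 and Csf1r had means of 6.68 and 12.7 CPM, and C1qa and Lyz2 higher ones of 59.4 and 330 CPM. Ly6c2 fell instead, from a mean of 66.4 CPM at day 0 to 21.6 at day 3 and 8.55 at day 7. The part of macrophage RNA in the day 7 value was not tested either. Thinned to 1500 UMIs, 50 of 592 endothelial-like cells of day 7 (8.45%) showed a Nrros UMI, against 23 of 3842 stromal-like cells (0.599%) and 882 of 4018 macrophage-like cells (21.9%); before thinning the shares were 41.1%, 5.96% and 56.8%, at median depths of 9909.5, 12804 and 5198 UMIs. Lymphatic endothelial-like cells, with 1 of 121 thinned cells (0.826%) and 13.2 CPM, did not share this level.

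**Figure D4:**
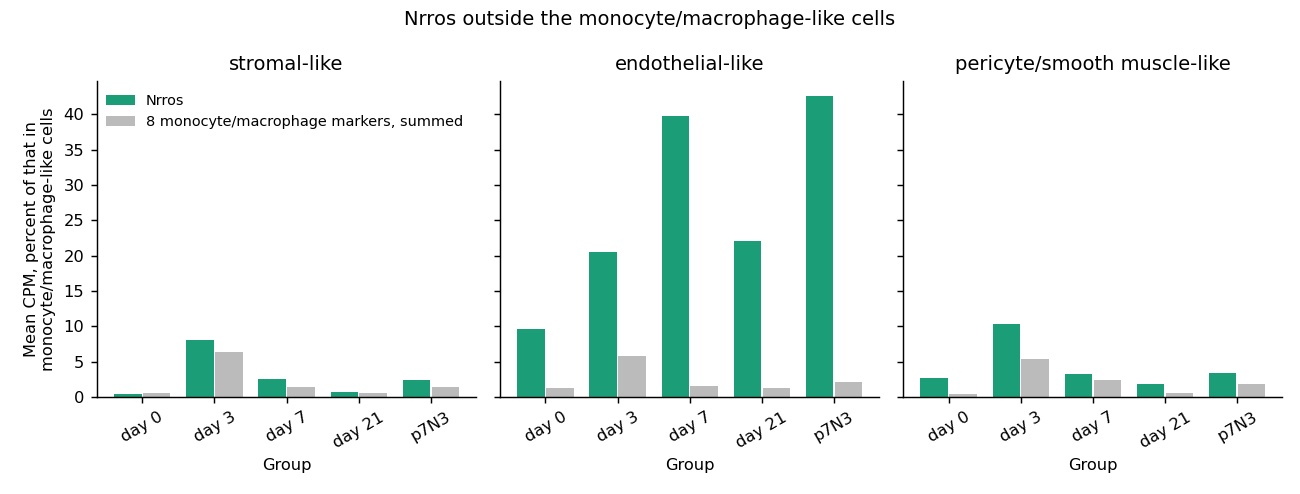
Mean CPM of Nrros (green) and the summed CPM of 8 monocyte/macrophage markers (grey) in stromal-like, endothelial-like and pericyte/smooth muscle-like cells of each group, as a percent of the same quantity in macrophage-like cells. Both bars move together in stromal-like cells, whereas in endothelial-like cells of day 7 Nrros reaches 39.8% and the markers 1.58%.

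The integrin subunits moved in opposite directions in endothelial-like cells. Itgav stood at 8.54, 8.23, 15.4 and 11.6 CPM at day 0, at 34.4, 34.6 and 49.9 at day 3 and at 30.7, 33.1, 32.8 and 29.1 at day 7, without overlap (log2 fold changes 1.99, SE 0.27, adjusted p 2.5e-05, and 1.54, SE 0.21, adjusted p 8.4e-06). Itgb5 stood at 29.9, 44.3, 29.7 and 52.5 CPM at day 0 and at 14.2, 22.1 and 13.9 CPM at day 3 and 8.56, 12.8, 15.8 and 9.16 CPM at day 7, with log2 fold changes of -1.12 (SE 0.29, adjusted p 0.00436) and -1.78 (SE 0.24, adjusted p 8.7e-06). Ltbp1 fell (-1.75, -1.14 and -0.96 at the 3 days; adjusted p 0.000613, 0.00128 and 0.0154), the last call lost without day 0 replicate 4 or day 21 replicate 1 (adjusted p 0.054 and 0.0559). Ltbp3 rose from 3.30 to 7.20 CPM at day 0 to 13.2 to 18.3 CPM at day 7 (1.65, SE 0.30, adjusted p 0.000154) and 9.58 to 21.2 CPM at day 21 (1.77, SE 0.36, adjusted p 0.00284).

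Lrrc32 in endothelial-like cells stood at 72.6, 44.3, 68.2 and 58.7 CPM at day 0, at 98.4, 105 and 105 CPM at day 3 and at 101, 73.6, 70.0 and 88.2 CPM at day 7. It rose by 0.86 on the log2 scale at day 3 (SE 0.17, adjusted p 0.000528), without overlap, and by 0.98 at day 21 (SE 0.21, adjusted p 0.00372), where 1 of the 4 libraries, at 71.6 CPM, lay within the day 0 range. The day 7 libraries overlapped with day 0, and the log2 fold change of 0.46 (SE 0.16, adjusted p 0.0246) was lost without day 0 replicate 2 or 4 or day 7 replicate 1 (adjusted p 0.0946, 0.0663 and 0.0935). In all, 6 of 6 members tested passed at day 3 (3 higher, 3 lower), 7 of 7 at day 7 (4 higher, 3 lower) and 4 of 7 at day 21 (3 higher, 1 lower), beside 58%, 58.9% and 27% of all genes.

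Of the endothelial-like cells, 93.8% were in cluster 11 (Timp4, Tcf15, Aqp7) at day 0 and 93.9% in cluster 10 (Plvap, Aplnr, Selp) at day 7, and both were present at day 21. Within cluster 10, Ltbp4 went from 717 CPM at day 0 to 153, 244 and 764 CPM at day 3, day 7 and day 21, Nrros from 15.8 to 48.8, 69.5 and 37.3 CPM, and Itgav from 5.92 to 31.5 CPM at day 7, close to the courses of the whole cell type. Itgb5 within cluster 10 was 10.46 CPM at day 0 and 10.2 CPM at day 7, against 40.5 CPM in cluster 11 at day 0. At day 0 cluster 10 held only the few endothelial-like cells outside cluster 11. Its low day 0 levels of Itgb5 and Itgav therefore rest on few UMIs, and whether either gene changed within the cluster was not tested.

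The other cell types were not tested over time and are given as levels. Schwann cell-like Itgb8 stood at 149.8, 98.2, 147 and 159 CPM at day 0, at 169, 143 and 249 CPM in 3 day 7 libraries and at 336, 203, 337 and 375 CPM at day 21. Those day 7 values rest on 35, 17 and 19 cells and those of day 21 on 182 cells in all. Schwann cell-like cells had the highest Itgb8 level at each of these days. Pericyte-like Lrrc32 stood at 149, 123, 80.2 and 144 CPM at day 0 and at 71.1, 59.0, 46.9 and 58.8 CPM at day 7. Within cluster 19 (led by Myh11), which held 79.1% of pericyte-like cells at day 0, its mean kept between 135 and 156 CPM from day 0 to day 21, and cluster 13 (led by Rgs5), which held 84.3% of them at day 7, had 45.4 CPM. Lymphatic endothelial-like Ltbp4 stood at 1122 and 1587 CPM in the 2 day 0 libraries with enough cells and at 988, 1089, 761 and 725 CPM at day 21, all above the 4 day 7 libraries.

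Other genes of the same pathway, a list of 21 ligands, fibre proteins, integrin partners and proteases, gave the setting. In stromal-like cells 20 were tested at day 7, of which 8 were higher and 5 lower (median log2 fold change 0.23), beside 53.6% of all genes. The microfibril and elastic fibre genes Fbn2 (2.26 to 129 CPM, log2 fold change 5.79), Emilin1 (39.1 to 204 CPM, 2.45) and Efemp2 (1.72) rose, as did Fn1 (fibronectin, 0.82) and Mmp14 (a membrane protease that can release latent TGF beta, 163 to 408 CPM, 1.38), all with adjusted p of 0.000248 or lower. Fbn1, the main fibrillin that anchors LTBPs, fell by 0.50 on the log2 scale (adjusted p 0.00655), and Tgfb2 (-0.65), Itgb3 (-0.69), Htra1 (-0.53) and Plau (-1.87) were also lower. At day 3 the balance was 5 higher and 10 lower of 20 (median -0.38), and at day 21 11 higher and 2 lower of 19 (median 0.47). The shares of all genes that passed were 66.3% and 32.7%.

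In macrophage-like cells 6 of 15 pathway genes tested were higher and 3 lower at day 7, beside 34% of all genes. Mmp14 went from 2.47 to 88.2 CPM (log2 fold change 5.25, adjusted p 8.3e-10) and Thbs1, thrombospondin 1, an activator of latent TGF beta, from 164 to 417 CPM (1.51, adjusted p 0.00355). Mmp9 (-3.29), Plau (-1.63) and Furin, the convertase that cleaves the TGF beta precursor (-0.64, adjusted p 0.0368), were lower. Mmp9 is also a marker that named the osteoclast-like clusters, which were kept out of the macrophage-like cells. No day 0 library held at least 10 cells of that type. How much of the Mmp9 fall came from this split was not tested. In endothelial-like cells 12 of 16 were higher at day 7 and the other 4 did not pass (median 1.16), beside 58.9% of all genes. The higher ones included Itgb3, the beta 3 partner of alpha v (1.68 to 39.5 CPM, log2 fold change 4.48, adjusted p 1.9e-08), Mmp14 (4.20) and Thbs1 (2.58). Between cell types at day 7, 3 of 20 were higher in macrophage-like than in stromal-like cells, namely Tgfb1 (2.52), Thbs1 (0.93) and Furin (0.73), and 16 were lower (median -3.70, beside -0.07 for all genes). Of all genes tested, 74.9% passed in that comparison. Tgfb1 was at 260.0 ± 19.1 CPM in macrophage-like, 204 ± 27.4 in endothelial-like and 55.3 ± 5.69 in stromal-like cells (SD, n = 4 each).

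The comparison of p7N3 with day 7 asks whether CD47 activation moved the storage and activation genes (plot of the log2 fold changes with 2 SE). No member passed in stromal-like (0 of 9), macrophage-like (0 of 7 tested) or endothelial-like cells (0 of 7 tested), and over all genes edgeR called 0% in each. At an unadjusted p under 0.05 there were 1314 of 13098 genes in stromal-like, 995 of 10555 in macrophage-like and 777 of 9635 in endothelial-like cells, and DESeq2 called 51, 29 and 4. The interaction of cell type and peptide, stromal-like against macrophage-like, called 0 of 9 members and 0% of 13104 genes, with 879 at an unadjusted p under 0.05 and 5 called by DESeq2.

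**Figure D5:**
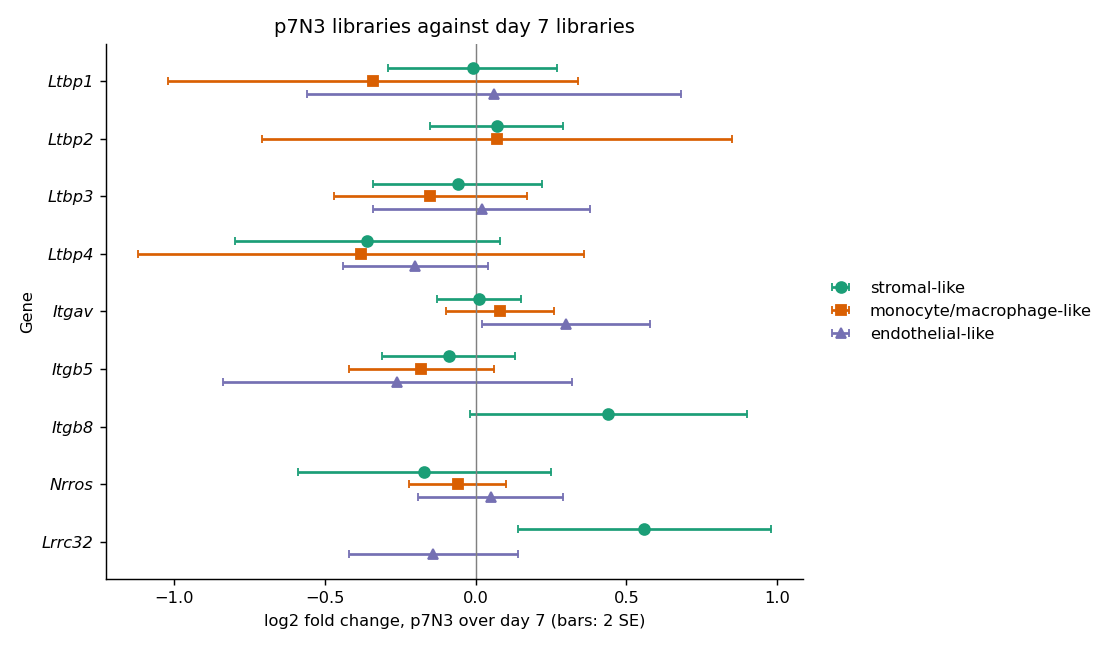
Log2 fold change of p7N3 over day 7 libraries (4 each) for every member tested in stromal-like, macrophage-like and endothelial-like cells, with bars of 2 SE. Stromal Lrrc32 (0.56) and endothelial Itgav (0.30) are the 2 whose bars stay clear of 0, and neither passed after adjustment.

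Stromal Lrrc32 stood at 36.9, 37.1, 56.3 and 58.8 CPM with p7N3 against 39.4, 37.7, 22.2 and 29.5 CPM at day 7, which overlapped (log2 fold change 0.56, SE 0.21, unadjusted p 0.0205, adjusted p 0.427 with edgeR). Endothelial Itgav stood at 42.4, 30.8, 42.2 and 41.8 CPM with p7N3 (0.30, SE 0.14, unadjusted p 0.0439, adjusted p 0.604). Stromal Ltbp4 stood at 37.0, 48.1, 49.0 and 36.8 CPM (-0.36, interval of 2 SE from -0.81 to 0.09). For Nrros in macrophage-like cells, 167, 179.6, 166 and 174 CPM, the interval was narrow, from -0.22 to 0.10, and for stromal Itgav from -0.14 to 0.15. For macrophage Ltbp4 (-1.11 to 0.36) and Ltbp1 (-1.01 to 0.33) it was wide. These intervals say how large a change the libraries leave possible, and since p7N3 differs from day 7 also in the points named at the start, peptide and such differences cannot be told apart.

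Across the 151 sums of a cell type in a library with at least 20 cells (15 cell types), the member genes split into patterns, described by Pearson's r of log2(CPM + 1) among 10570 genes of at least 5 CPM. These sums share libraries and depth, so r is a description. The genes most like Nrros were Hcls1 (0.934), Lcp1 (0.917) and Inpp5d (0.913), and those most like Ltbp4 were Tjp1 (0.885), Tshz2 (0.874) and Etl4 (0.872). Ltbp1 was most like Neo1 (0.878), Rbms3 (0.850) and Islr (0.847), Ltbp3 like Antxr1 (0.876), Nfix (0.873) and Vkorc1 (0.873), and Ltbp2 like Bcat1 (0.843), Sfrp2 (0.842) and Prrx2 (0.812). Lrrc32 was most like Igfbp7 (0.859), Pear1 (0.856) and Fam13c (0.855), and Itgb8 like Gldn (0.795), Ncmap (0.774) and Fam19a5 (0.770). The broad integrin subunits had looser matches, Tpi1 (0.760), Anxa1 (0.751) and Cd63 (0.735) for Itgav and Adam9 (0.772), Axl (0.772) and Pdgfc (0.761) for Itgb5. Among the members, Ltbp1 and Ltbp3 were closest (0.788), Itgav was closer to Itgb5 (0.620) than to Itgb8 (0.352), and Nrros ran against Ltbp1 (-0.782).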

How the data were processed

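Single cells from 19 mouse libraries (10x 3′ v2 chemistry) were used as the UMI counts per gene and cell that the authors deposited. Per the labels' processing notes they had run Cell Ranger and Seurat; those notes name GRCh38 for 15 samples and mm10 for 4, but all gene identifiers are mouse ones. The matrix of day 0 replicate 1 held 737280 barcodes, and those of the other libraries held 614 to 3786. The 1003 cells of day 0 replicate 1 were thus set only by the filters that follow. Barcodes under 500 genes or over 25% mitochondrial UMIs were dropped, and the 39541 cells left were normalized and clustered on 2000 variable genes, 30 components and 20 neighbours (Leiden, resolution 0.8, leidenalg 0.10.2), none of them a member or 1 of the 21 pathway genes. A cluster took its name from at least 3 markers. No doublets were removed, except in 1 alternative. UMI counts were summed per library and cell type over at least 10 cells and tested with edgeR 4.0.16 (TMM, filterByExpr, quasi-likelihood, R 4.3.3), with Benjamini-Hochberg adjustment and a threshold of 0.05; SEs were taken from the F statistic. The day 7 cell type tests had library as a block. CPM used all UMIs of the sum as the denominator, with 3 counts as the floor for 0.

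The members, lists and tests were chosen with earlier results of these data known. Every member that passed is named in its comparison, while some that did not pass or were not tested are left unnamed. From the pathway list, counts are given for part of the comparisons, and only some of the genes that passed are named. For each member the 3 genes with the highest correlation are named. Alternatives that regroup tenocyte-like or osteoclast-like clusters were added after the data were seen. On simulated counts for stromal-like cells of day 7 against day 0 (12150 genes), 53.0% of 2-fold and 96.9% of 4-fold changes were recovered. Same-numbered replicates had r from -0.116 to 0.131, and in no comparison was r over 0.1 in every pair, so numbers were not used as pairs. UMI totals per library and group are in the report; counting intervals and floors cover counting error only.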

Additional observations from a re-analysis of the deposited data

Results flagged for a closer look

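In 74 sets of 4 libraries (a member gene in a cell type and group with a mean of at least 20 CPM), 5 held 1 library far from the other 3, where chance flags about 1 in 20. Ltbp4 in endothelial-like cells of day 7 was 199.0 CPM in replicate 2 and 260.4 to 263.9 CPM in the others, and Itgav in endothelial-like cells given p7N3 was 30.83 CPM in replicate 2 and 41.76 to 42.38 CPM in the others. Itgb5 in stromal-like cells was 147.0 CPM in day 7 replicate 1 against 127.5 to 129.6 CPM, and 137.6 CPM in day 21 replicate 4 against 151.2 to 153.5 CPM. Nrros in macrophage-like cells of day 0 was 231.9 CPM in replicate 1, on 146 UMIs, against 165.5 to 172.3 CPM.

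The change from day 0 to day 7 differed between stromal-like and macrophage-like cells for 4 members, by edgeR's interaction test over 12093 genes. The difference, stromal minus macrophage on the log2 scale, was -1.55 for Ltbp4 (SE 0.31, adjusted p 0.000614), -1.93 for Itgav (SE 0.26, adjusted p 6.0e-06), -1.25 for Itgb5 (SE 0.22, adjusted p 0.000147) and 1.94 for Nrros (SE 0.50, adjusted p 0.00644). Ltbp4 was low in macrophage-like cells (means of 14.2 and 4.17 CPM at day 0 and day 7), and Nrros was low in stromal-like cells (0.861 and 4.60 CPM).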

How the results depend on the processing

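Of 74 member changes called, 62 kept their direction and call under every alternative that tested them and 12 were not called under at least 1; 45 of 1266 member alternatives were not called. In 1 case the direction turned: Itgav in macrophage-like against stromal-like cells of day 7 went from -0.25 to 0.04 (adjusted p 0.748) with osteoclast-like clusters added. A minimum of 10 UMIs in every library left fewer members to test, with counts of 3 (stromal-like, day 3), 2 (stromal-like, day 7), 1, 0 and 0 (macrophage-like, day 3, 7 and 21), 4 (endothelial-like, day 7) and 2 (endothelial-like, day 21); the day 7 cell type comparisons and the day 7 interaction got no value under it. The macrophage-like day 3 count of 3 became 6 without a filter, 5 in one fit over all 5 groups and 5 with the replicate block. That block changed no other count by over 1.5 times (stromal-like day 21 gave 7, macrophage-like day 7 gave 3), and in stromal-like cells of p7N3 against day 7, 3 of 4 libraries correlated best with their own number, as a hint from the data only. Dendritic cell-like against macrophage-like cells gave 2 with only these 2 types in the fit. Leaving out 1 library gave counts of 6 to 7, 3 to 5 and 5 to 7 in stromal-like cells at day 3, 7 and 21, of 4 to 6, 2 to 3 and 2 in macrophage-like cells, of 6, 6 to 7 and 3 to 5 in endothelial-like cells, of 7 to 9, 9, 5 to 6 and 2 to 4 in the 4 cell type comparisons, and of 4 and 0 in the interactions. Unless named above, the cause was not tested. At day 0 the macrophage-like sums held 278659 to 629530 UMIs a library.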
